A study of Mus musculus with 12 samples.

Results

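The genes described here encode the contractile unit of heart muscle, the sarcomere, and the Z-disc that anchors it. They were chosen by name as a list of 33 genes, with earlier results of these data known. Each was read from its brightest probe, the one with the highest mean over all arrays. Of the 33 genes, 30 had a probe in the platform annotation, out of 19056 gene symbols named there. Tnnt2, Xirp1 and Smpx had none and are not analysed here. The 30 measured genes comprised 7 of the thick filament, 8 of the thin filament, 3 of titin and the M-band, 11 of the Z-disc and its links and 1 of the stretch response.

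In a sarcomere, myosin thick filaments slide along actin thin filaments, troponin and tropomyosin make the sliding depend on calcium, titin spans from the Z-disc to the M-band as a spring, and the Z-disc crosslinks the actin of neighbouring sarcomeres. Many of these proteins exist as paralogues. In the mouse, Myh7 is the main ventricular myosin heavy chain before birth and Myh6 after it, slow skeletal troponin I (Tnni1) gives way to cardiac troponin I (Tnni3), and Myl7 and Myl4 are atrial light chains whereas Myl2 and Myl3 are ventricular ones. Skeletal alpha-actin (Acta1) is expressed in the fetal heart beside cardiac alpha-actin (Actc1), and slow skeletal troponin T (Tnnt1) has also been found in fetal heart muscle.

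RNA came from whole hearts of mouse embryos at E15.5, with 1 Illumina array per heart, from a line of mixed strain background that carries a gene trap in Ddc, the gene for dopa decarboxylase. The KO group is 1 heart with the trap on both alleles, the 4 PatKO hearts inherited it from the father, the 4 MatKO hearts inherited it from the mother, and the 3 WT hearts carried none. The heart expresses the Ddc_exon1a transcript from the paternal allele, so the KO and PatKO hearts are Ddc-ablated (5 hearts) and the MatKO and WT hearts are Ddc-expressing (7 hearts). Homozygotes of this line die and are fewer than expected from Mendelian ratios, and the sources used here do not say which embryos shared a litter or an array slide.

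Signals are on a log2 scale, so that a difference of 1 is a ratio of 2. The values run from 4.58 to 15.59 over 45267 probes, and array medians lay between 5.61 and 5.62. The Ddc probe ILMN_2628647 read 8.45 in the KO heart and 9.07 to 9.73 in PatKO hearts, against 12.97 to 13.18 in MatKO hearts and 13.20 to 13.49 in WT hearts. Of 20 other heart muscle genes, 18 were above a mean of 7, the bound under which probes are called dim here. The mean of 20 liver genes, set against each gene's mean over all hearts, was 2.60 in the KO heart, -1.55 to 1.98 in PatKO hearts, -1.57 to 0.75 in MatKO hearts and -1.47 to -1.10 in WT hearts, and its part in the results was not tested beyond its use as a covariate. Xist, the RNA of the inactive X chromosome, was under 7 in 3 hearts (MatKO replicate 3 and PatKO replicates 1 and 3) and over 12 in the other 9.

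The promoters of 5 members are shown because the results turn on them. Mypn, Tnnt1 and Pdlim3 are the members of smallest p between PatKO and MatKO hearts, and Myl7 and Myh6 each stand for a paralogue pair. Each runs 5′ to 3′ along the gene's strand, from 250 bases before the annotated transcription start to 50 after it, and capitals mark matches to motifs. The sequences are those of RefSeq on build GRCm38.p6.
Mypn (chr10:63203903-63204202, minus strand): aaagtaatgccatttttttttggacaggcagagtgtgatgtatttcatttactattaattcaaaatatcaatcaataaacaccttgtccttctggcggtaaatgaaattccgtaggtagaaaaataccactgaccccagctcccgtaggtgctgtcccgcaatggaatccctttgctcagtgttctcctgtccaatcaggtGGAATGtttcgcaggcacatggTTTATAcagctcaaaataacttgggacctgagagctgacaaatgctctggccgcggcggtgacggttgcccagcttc
Tnnt1 (chr7:4515926-4516225, minus strand): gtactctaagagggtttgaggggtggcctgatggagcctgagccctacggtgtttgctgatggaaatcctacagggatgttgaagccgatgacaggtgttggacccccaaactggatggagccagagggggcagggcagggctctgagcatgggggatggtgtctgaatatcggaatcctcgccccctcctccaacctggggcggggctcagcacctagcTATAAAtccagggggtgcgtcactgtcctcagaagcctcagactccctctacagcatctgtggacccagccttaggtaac
Pdlim3 (chr8:45885237-45885536, plus strand): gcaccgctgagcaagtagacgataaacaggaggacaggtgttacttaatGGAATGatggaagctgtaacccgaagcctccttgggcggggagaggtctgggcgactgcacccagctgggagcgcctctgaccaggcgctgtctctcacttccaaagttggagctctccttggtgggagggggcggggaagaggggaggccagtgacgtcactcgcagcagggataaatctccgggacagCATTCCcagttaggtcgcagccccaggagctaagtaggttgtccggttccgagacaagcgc
Myl7 (chr11:5898733-5899032, minus strand): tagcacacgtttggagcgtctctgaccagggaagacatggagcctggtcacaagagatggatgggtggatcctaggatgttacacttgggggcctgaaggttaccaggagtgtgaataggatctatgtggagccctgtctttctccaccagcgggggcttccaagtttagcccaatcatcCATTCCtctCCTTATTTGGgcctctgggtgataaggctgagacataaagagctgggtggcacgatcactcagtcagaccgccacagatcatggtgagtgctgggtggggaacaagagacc
Myh6 (chr14:54966558-54966857, minus strand): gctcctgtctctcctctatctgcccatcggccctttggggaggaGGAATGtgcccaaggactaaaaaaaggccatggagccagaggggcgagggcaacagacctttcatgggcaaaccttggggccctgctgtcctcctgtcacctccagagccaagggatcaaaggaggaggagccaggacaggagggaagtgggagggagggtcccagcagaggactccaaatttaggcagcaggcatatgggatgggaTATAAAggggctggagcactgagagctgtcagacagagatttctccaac

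Capitals mark the TATA box (TATAAA), the M-CAT element that TEAD factors bind (CATTCC) and the CArG box that serum response factor binds, each sought on both strands. The CArG box is marked only in Myl7, 61 bases before the start and next to an M-CAT element at 70. Mypn has an M-CAT element 49 bases before the start and a TATA box match at 27 that reads TATAAA only on the opposite strand. Tnnt1 has a TATA box at 30 on the gene's strand, and Pdlim3 has M-CAT elements at 201 and 11. Myh6 has an M-CAT element at 206, and its TATA box begins 1 base after the annotated start. None of the matches shown overlap.

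Over all promoter windows of this length, CArG boxes were in 1.63% (535 of 32851) and M-CAT elements in 14.7%. Among the 38 windows of the 28 members that had one, CArG boxes were in 21.1% (8 windows of Acta1, Actc1, Ldb3, Myl3, Myl7, Myom1 and Nebl) and M-CAT elements in 36.8%. TATA boxes were in 18.4% of member windows and 13.6% of all windows, and the MEF2 site, a motif of muscle gene promoters, in 7.89% and 3.19%. GATA sites (GATA with A or T before it and A or G after it) were in 36.8% and 29.8%. These shares are descriptions of letters in a window. Along the genome, Myh6 lies beside Myh7 on chromosome 14 and Tnnt1 beside Tnni3 on chromosome 7.

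Many members were among the brightest genes of the heart, which may limit what the arrays could show of them. The mean over the 12 hearts was 15 or more for 6 members (Actn2, Csrp3, Myl2, Myl3, Myl4 and Tnnc1) and 14 or more for 13, and 10 lay within 1 of the highest value on the arrays. Only 201 of the 45267 probes had a mean of 15 or more. At the other end Nebl, which encodes the Z-disc protein nebulette, had a mean of 5.68 and Lmod2, which encodes an elongation factor of thin filaments, one of 5.87, both dim.

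The spread between hearts of 1 genotype narrowed towards the top of the scale. The SD was 0.0487 to 0.0826 in the 6 members at 15 or more, beside a median of 0.0805 over all probes of that range, and 0.11 to 0.49 in the 9 members between 13 and 14, beside 0.135 over all probes. Myl3, the ventricular essential light chain, read 15.31 in the KO heart, 15.30, 15.34, 15.23 and 15.26 in PatKO hearts, 15.36, 15.26, 15.28 and 15.30 in MatKO hearts and 15.37, 15.27 and 15.31 in WT hearts. All 12 values lay within a small band under the array maximum, and the groups overlapped throughout. Myl2, the ventricular regulatory light chain, read 15.532 in the KO heart, 15.502, 15.486, 15.444 and 15.444 in PatKO hearts, 15.389, 15.348, 15.480 and 15.472 in MatKO hearts and 15.524, 15.401 and 15.507 in WT hearts. Myl4, the atrial essential light chain, read 15.27 in the KO heart, 15.18, 15.28, 15.29 and 15.39 in PatKO hearts, 15.33, 15.33, 15.33 and 15.23 in MatKO hearts and 15.28, 15.25 and 15.34 in WT hearts. For these 3 light chains the PatKO, MatKO and WT hearts overlapped, and the KO heart was the highest of the 12 for Myl2, by less than 0.01 over the next heart.

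**Figure D1:**
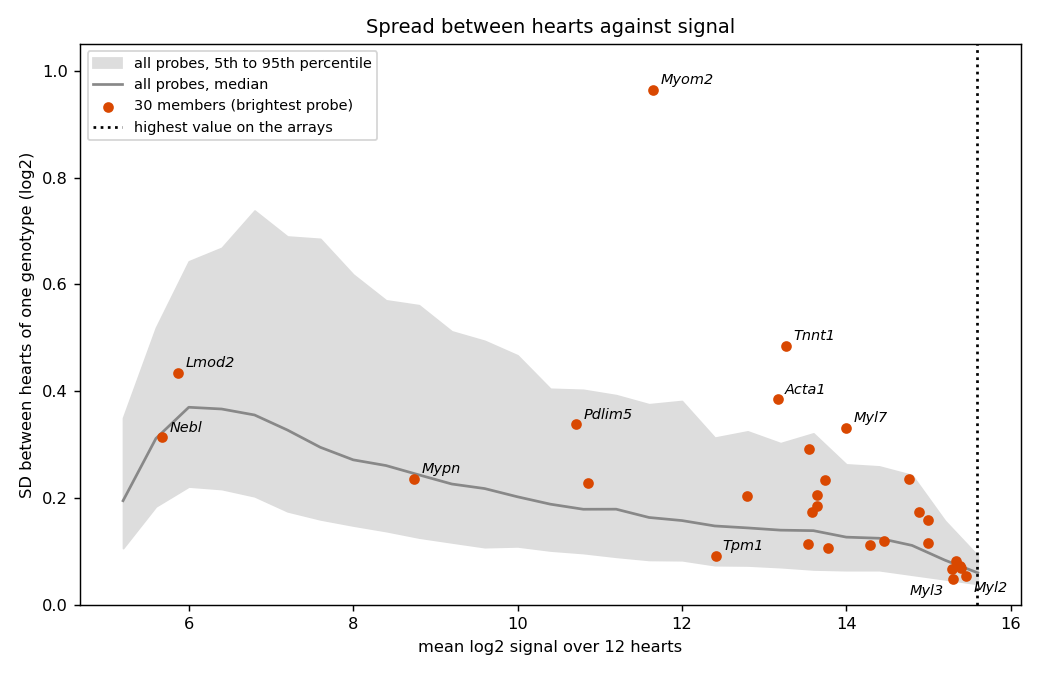
SD between hearts of one genotype (y axis, log2) against mean log2 signal over 12 hearts (x axis) for the 30 members (points) and for all probes (median line and a 5th to 95th percentile band), with the highest array value as a dotted line. The 6 members at 15 or more have SDs of 0.0487 to 0.0826, and Myom2, at 0.96, lies far above the band.

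Myom2, which encodes the M-band protein M-protein, varied most, with an SD of 0.96 between hearts of 1 genotype. It read 11.14 in the KO heart, 10.95, 11.93, 12.79 and 12.64 in PatKO hearts, 11.29, 11.10, 11.30 and 10.82 in MatKO hearts and 10.09, 13.02 and 12.71 in WT hearts. The highest and the lowest value were both WT hearts, the MatKO hearts lay close together, and all groups overlapped. The difference between PatKO and MatKO hearts was 0.95 with an SE of 0.59. The next in spread were Tnnt1 (SD 0.49) and the dim Lmod2 (SD 0.43). Lmod2 read 5.94 in the KO heart, 6.54, 5.72, 5.66 and 5.49 in PatKO hearts, 5.90, 5.86, 6.32 and 5.42 in MatKO hearts and 5.60, 5.59 and 6.41 in WT hearts, with a high heart in each group of several.

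WT replicate 1 was the lowest of the 12 hearts for 4 members, among them Myom2 and the Z-disc genes Myoz2 and Tcap. MatKO replicate 2 was the lowest for 5 members, and PatKO replicate 4 and the KO heart were the lowest for 0. Over the 30 members the median deviation of a heart from the mean of all hearts lay between -0.04 and 0.04.

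The comparison of PatKO with MatKO hearts sets the trap on the expressed allele against the trap on the silent one. No member passed an adjusted p of 0.05 (limma over all probes, Benjamini-Hochberg), where 0.00663% of all probes did, and the smallest adjusted p of a member was 0.306. At an unadjusted p under 0.01 with a log2 difference over 0.4, the study's own criterion, 3 of 30 members passed, beside 1.39% of all probes. Since the list was chosen with earlier results of these data known, the share of members passing is no independent finding, here or below. Mypn was above and Tnnt1 and Pdlim3 were below their MatKO levels. At an unadjusted p under 0.05 there were 6, beside 7.12% of all probes, with Myh7, Mypn and Ttn above (3.3% of all probes) and Myl7, Pdlim3 and Tnnt1 below (3.82%). The study's own list at its criterion for these genotypes also holds Myl7 and Acta1. It holds less bright probes of Myh6, Myl4 and Pdlim3 as well. In the fit used here Myl7 (unadjusted p = 0.0197 from limma) and Acta1 (0.0612) did not reach that criterion. Why the lists differ was not tested. The median of all 30 members was 0.02, with 16 above 0 and 14 below where 48.9% of all probes were above, beside a median of -0.00427 over all probes. Hearts were assayed whole, so that fewer cells of a type and less RNA per cell cannot be told apart.

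Mypn encodes myopalladin, which ties titin and nebulette to alpha-actinin in the Z-disc. It read 8.64 in the KO heart, 9.15, 9.27, 9.08 and 8.93 in PatKO hearts, 8.10, 7.97, 8.47 and 8.71 in MatKO hearts and 8.86, 8.73 and 9.04 in WT hearts. The 4 PatKO hearts lay above the 4 MatKO hearts with no overlap, the 3 WT hearts lay above the MatKO hearts, with WT replicate 3 inside the PatKO range, and the KO heart lay within the MatKO range. The mean was 9.11 ± 0.14 in PatKO hearts and 8.31 ± 0.34 in MatKO hearts (SD, n = 4 each), a difference of 0.79 with an SE of 0.16 (adjusted p = 0.306 from limma). A second Mypn probe was dim (mean 5.25) and differed by -0.13. With the mean of both probes in place of the brighter one the difference was 0.33.

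Tnnt1 encodes slow skeletal troponin T, which fixes the troponin complex to tropomyosin. It read 12.96 in the KO heart, 13.36, 12.56, 12.71 and 12.54 in PatKO hearts, 13.98, 14.06, 13.82 and 13.67 in MatKO hearts and 13.86, 13.45 and 12.28 in WT hearts. All PatKO hearts and the KO heart lay below all MatKO hearts, and the WT hearts spanned both ranges, with WT replicate 3 the lowest of all 12. The mean was 12.79 ± 0.39 in PatKO hearts and 13.88 ± 0.17 in MatKO hearts (SD, n = 4 each), a difference of -1.09 with an SE of 0.30 (adjusted p = 0.468). Of 18 measured genes of a skeletal muscle list, 12 were dim, among them Myod1 and Myog, and the mean of the list lay at -0.12 to 0.53 in PatKO hearts and -0.15 to -0.01 in MatKO hearts, overlapping.

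Pdlim3 encodes a PDZ and LIM domain protein that binds alpha-actinin at the Z-disc. It read 13.70 in the KO heart, 13.43, 13.06, 13.50 and 13.62 in PatKO hearts, 13.93, 13.96, 13.83 and 13.71 in MatKO hearts and 13.73, 13.75 and 13.44 in WT hearts. PatKO and MatKO hearts did not overlap, whereas the WT hearts reached into the PatKO range and the KO heart lay just under the lowest MatKO heart. The difference between PatKO and MatKO hearts was -0.45 with an SE of 0.13 (adjusted p = 0.485). A second, less bright probe (mean 11.96) differed by -0.48 with an SE of 0.21.

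**Figure D2:**
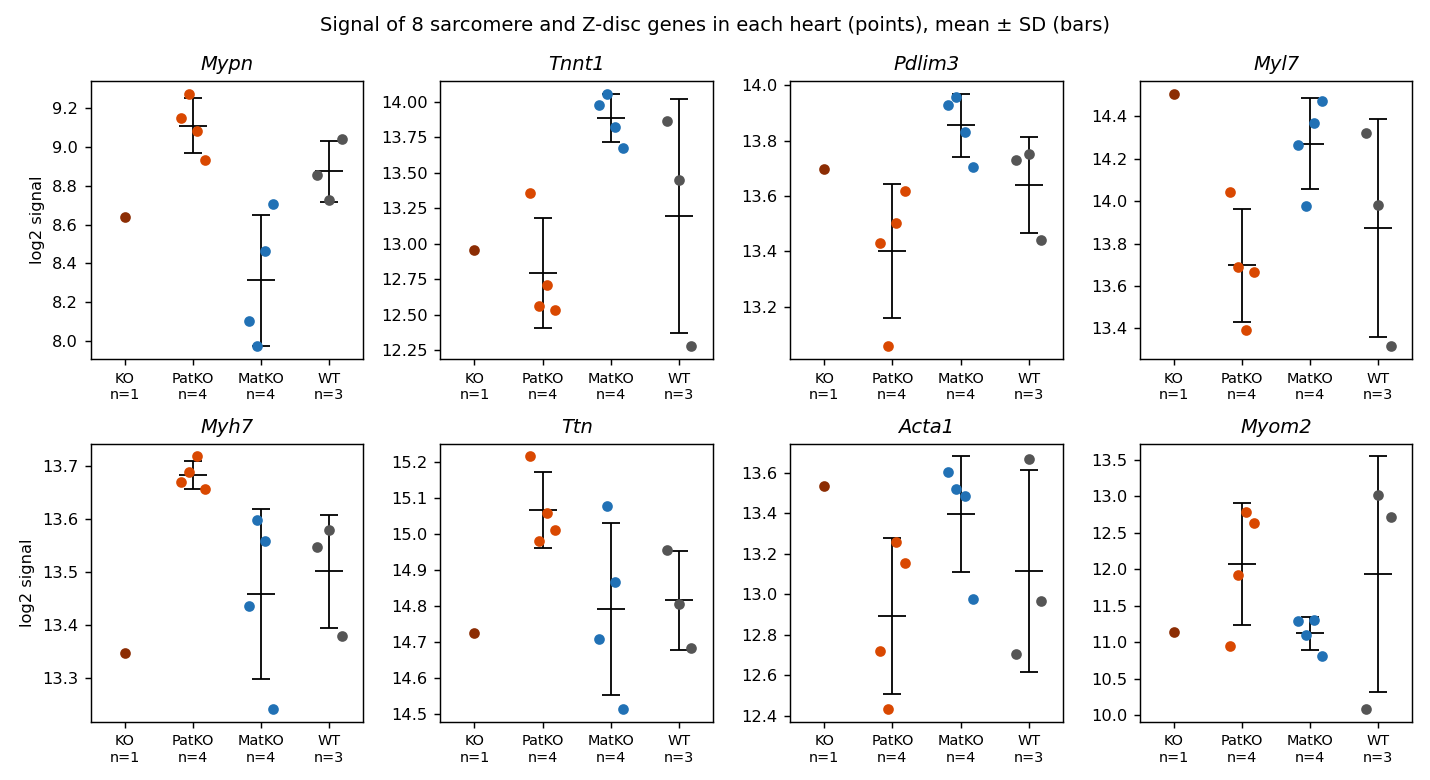
Log2 signal (y axis, cut to the range of each gene) of 8 members in every heart (points) by genotype (x axis), with mean and SD as bars where a group has several hearts. Mypn lies above MatKO in all 4 PatKO hearts, Tnnt1 and Pdlim3 lie below it, and the WT hearts of Tnnt1 span 12.28 to 13.86.

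Myl7 and Myh7 came next by p. Myl7, the atrial regulatory light chain, read 14.51 in the KO heart, 14.04, 13.69, 13.39 and 13.66 in PatKO hearts, 14.27, 13.98, 14.37 and 14.47 in MatKO hearts and 14.32, 13.98 and 13.31 in WT hearts. The KO heart was the highest of all and WT replicate 3 the lowest, and PatKO and MatKO hearts overlapped by 1 heart. Their difference was -0.58 with an SE of 0.21 (adjusted p = 0.585). Of 10 measured genes of an atrial list, which holds Myl7 and Myl4, 8 were below their MatKO level and 2 above. Of all probes, 48.9% were above. The mean of the atrial list was -0.33 to 0.06 in PatKO hearts, against -0.13 to 0.28 in MatKO hearts.

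Myh7, the fetal ventricular myosin heavy chain, read 13.35 in the KO heart, 13.67, 13.69, 13.72 and 13.66 in PatKO hearts, 13.44, 13.60, 13.56 and 13.24 in MatKO hearts and 13.55, 13.58 and 13.38 in WT hearts. The PatKO hearts were tightly grouped above all MatKO and WT hearts. The difference from MatKO hearts was 0.22 with an SE of 0.09 (adjusted p = 0.653). Its less bright probes (means 11.21 and 11.09) differed by 0.28 and 0.24, with SEs of 0.29. Ttn, which encodes titin, read 14.73 in the KO heart, 15.22, 14.98, 15.06 and 15.01 in PatKO hearts, 14.71, 15.08, 14.87 and 14.51 in MatKO hearts and 14.96, 14.81 and 14.68 in WT hearts. The PatKO hearts lay above all WT hearts and overlapped with MatKO replicate 2, with a difference from MatKO hearts of 0.27 and an SE of 0.12 (adjusted p = 0.694).

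PatKO and MatKO hearts did not overlap for Myh7 and Mypn above, beside 2.15% of all probes, and for Nebl, Pdlim3 and Tnnt1 below, beside 2.59%. Nebl is dim, and its other probe, also dim, differed by 0.20. By role, the thin filament genes were below their MatKO level at 7 of 8 probes (median -0.05), and titin and the M-band genes were above it at 3 of 3 (median 0.27). Of all probes, 48.9% were above their MatKO level. The thick filament genes were divided 4 above and 3 below, and those of the Z-disc 8 above and 3 below, with medians of 0.05 each. Of 13 measured epicardial genes, 8 were below and 5 above their MatKO level. At an unadjusted p under 0.05, 6 were below, beside 3.82% of all probes (among them Tcf21, Upk1b, Lrrn4 and Krt19), and 0 above. The mean of that list lay at -0.63 to -0.00186 in PatKO hearts, 0.00195 to 0.20 in MatKO hearts and 0.05 to 0.19 in WT hearts. It was 0.23 in the KO heart, the highest of all hearts. The part of these epicardial differences in the members' values was not tested. The count of members past the study's criterion was 1 without MatKO replicate 1, MatKO replicate 2 or PatKO replicate 2, 2 without MatKO replicate 3 or PatKO replicates 1, 3 or 4, 4 without WT replicate 1, 5 without WT replicate 3, and 1 with the 9 hearts that express Xist. With the liver mean as a covariate neither Tnnt1 (-1.06) nor Pdlim3 (-0.39) passed it, with the mean of all probes of a gene neither Mypn (0.33) nor Pdlim3 (-0.47) did, and with a trended and robust variance Tnnt1 did not.

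**Figure D3:**
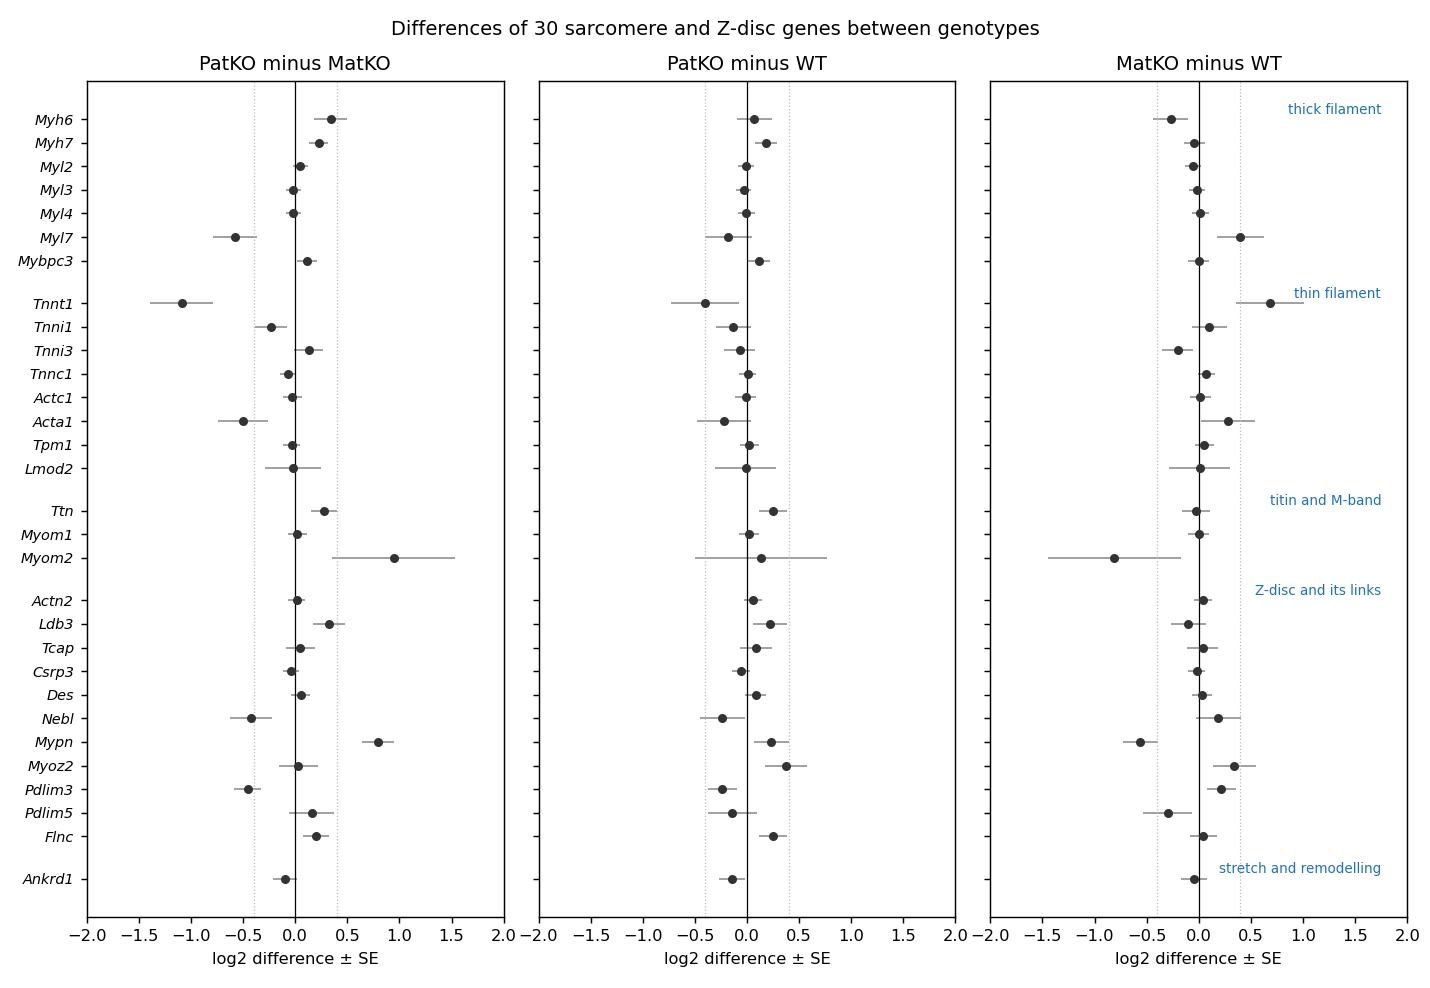
Log2 difference with SE (x axis) of 30 members (y axis, ordered by role) for PatKO minus MatKO, PatKO minus WT and MatKO minus WT, with dotted lines at 0.4 above and below 0. Most members lie between the dotted lines in each comparison, and Tnnt1 (-1.09) and Mypn (0.79) lie outside them for PatKO minus MatKO.

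Against WT hearts the PatKO hearts gave no member at an adjusted p of 0.05, where 0.00663% of all probes passed, none past the study's criterion (0.614% of all probes) and none at an unadjusted p under 0.05 (3.93% of all probes). The members were divided 15 above and 15 below, where 50% of all probes were above, with a median of 0.00109. Ldb3, Myh7 and Ttn had PatKO hearts above all WT hearts at their brightest probes, beside 2.21% of all probes. For 0 members they lay below, beside 2.48%. Other probes of these genes did not all follow. At both less bright Myh7 probes WT replicate 1 was above all PatKO hearts. Of the 12 titin probes 6 were above the WT mean and 6 below, and of the 6 Ldb3 probes 4 were above and 2 below. The 3 members of smallest p were Ttn, described above and 0.25 higher with an SE of 0.13, Flnc and Myoz2. The count past the study's criterion was 1 without WT replicate 1 or WT replicate 3.

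Flnc encodes filamin C, which crosslinks actin at the Z-disc and the membrane. It read 13.70 in the KO heart, 13.77, 13.84, 13.61 and 13.62 in PatKO hearts, 13.38, 13.62, 13.60 and 13.44 in MatKO hearts and 13.79, 13.28 and 13.31 in WT hearts. WT replicate 1 lay with the higher PatKO hearts and the other WT hearts were the lowest of all. The difference from WT was 0.25 with an SE of 0.13. A dim Flnc probe differed by -0.14.

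Myoz2 encodes myozenin 2, a Z-disc protein that binds calcineurin and alpha-actinin. It read 13.36 in the KO heart, 13.67, 13.69, 13.77 and 13.57 in PatKO hearts, 13.81, 13.60, 13.47 and 13.69 in MatKO hearts and 12.67, 13.65 and 13.58 in WT hearts. WT replicate 1 was the lowest, followed by the KO heart, and the other hearts lay together. The difference from WT was 0.37 with an SE of 0.20. A second Myoz2 probe (mean 8.49) did not follow it. That probe read 7.86 in the KO heart, 8.73, 7.85, 9.13 and 8.81 in PatKO hearts, 8.13, 8.28, 7.90 and 7.63 in MatKO hearts and 9.19, 9.19 and 9.20 in WT hearts. On it all WT hearts were above all other hearts, with a difference of -0.56 for PatKO against WT, of -1.21 for MatKO against WT (SE 0.26) and of -1.34 for KO against WT.

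The comparison of MatKO with WT hearts sets the trap on the silent allele against none. No member passed an adjusted p of 0.05, as was true of 0% of all probes, and 1 of 30 passed both the study's criterion (0.702% of all probes) and an unadjusted p under 0.05 (4.88% of all probes). This was Mypn, at 8.31 ± 0.34 in MatKO hearts (SD, n = 4) and 8.87 ± 0.16 in WT hearts (SD, n = 3), a difference of -0.56 with an SE of 0.17 (adjusted p = 0.999 from limma). Its MatKO hearts lay below all WT hearts, beside 2.42% of all probes, and 0 members had them above, beside 2.65%. This comparison and that of PatKO with MatKO share the same 4 MatKO hearts. With the mean of both Mypn probes the difference was -0.14. Next by p were Tnnt1, 0.69 higher with an SE of 0.33, and Myl7, 0.40 higher with an SE of 0.23, whose WT hearts overlapped the MatKO hearts. Over the 30 members the median was 0.01, with 16 above and 14 below, where 51.2% of all probes were above. The count past the study's criterion was 0 without WT replicate 3, MatKO replicates 1 or 2, or PatKO replicates 1 or 3, and 2 without WT replicate 1.

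For the KO heart there is 1 sample, and its test assumes that it varies like the other groups. No member passed an adjusted p of 0.05, where 0.0729% of all probes did, none the study's criterion (1.51%) and none an unadjusted p under 0.05 (4.91%). The KO heart lay above all WT hearts for Des, Myl2, Myl7 and Tpm1, beside 22.4% of all probes, and below them for Ankrd1, Myh7 and Mypn, beside 23.5%. Both counts are below the share of all probes. The median was -0.00166, with 14 above and 16 below, where 46.4% of all probes were above.

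The 3 members of smallest p were Myl7, 0.63 higher with an SE of 0.34, Ankrd1 and Tpm1. Ankrd1 encodes a stretch-responsive ankyrin repeat protein that binds titin. It read 14.82 in the KO heart, 14.97, 14.66, 15.02 and 15.12 in PatKO hearts, 15.08, 15.12, 15.05 and 14.91 in MatKO hearts and 14.98, 15.29 and 14.98 in WT hearts. PatKO replicate 2 was below the KO heart, and the difference between the KO heart and WT was -0.26 with an SE of 0.19. Tpm1, alpha-tropomyosin, read 12.55 in the KO heart, 12.37, 12.45, 12.39 and 12.35 in PatKO hearts, 12.30, 12.45, 12.55 and 12.40 in MatKO hearts and 12.51, 12.28 and 12.33 in WT hearts. The KO heart was level with MatKO replicate 3 and just above WT replicate 1, a difference from WT of 0.18 with an SE of 0.14.

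Titin has 12 probes, of which 7 are not dim. At all 12 the KO heart was below the WT mean, by 0.09 at the brightest to 1.41 at the second brightest. Of all probes, 46.4% were above 0 for this difference. At the brightest titin probe the KO heart (14.73) lay above WT replicate 3 (14.68). The second brightest probe (ILMN_1223811, mean 13.46) read 12.24 in the KO heart, 13.39, 13.37, 14.05 and 13.28 in PatKO hearts, 13.94, 14.29, 13.22 and 12.72 in MatKO hearts and 13.39, 13.83 and 13.74 in WT hearts. The KO heart was the lowest of the 12, with MatKO replicate 4 next above it. Its difference from WT was -1.41 with an SE of 0.50. No other probe of titin can serve as a replicate, since all were read in the same hearts. The sources used here do not say which titin transcripts each probe reads. Between PatKO and MatKO hearts 10 of the 12 titin probes were above 0, where 48.9% of all probes were, with differences between -0.19 and 0.42. Of the 7 that are not dim, 5 were above 0 and 2 below. For PatKO against WT hearts the 12 were divided 6 above and 6 below. For ablated against expressing hearts 5 were above and 7 below.

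When hearts were pooled as Ddc-ablated and Ddc-expressing, no member passed an adjusted p of 0.05 (0.00884% of all probes) or the study's criterion (0.702%). At an unadjusted p under 0.05 there were 5, beside 5.46% of all probes, of which Flnc and Mypn were above (2.78%) and Nebl, Pdlim3 and Tnnt1 below (2.68%). In all 17 were above and 13 below, where 47.8% of all probes were above. Tnnt1 was at 12.82 ± 0.34 in ablated hearts (SD, n = 5) and 13.59 ± 0.61 in expressing hearts (SD, n = 7), a difference of -0.76 with an SE of 0.27 (adjusted p = 0.823). Mypn was at 9.01 ± 0.24 in ablated hearts and 8.55 ± 0.39 in expressing hearts, a difference of 0.46 with an SE of 0.18 (adjusted p = 0.876). Pdlim3 differed by -0.30 with an SE of 0.12, Flnc by 0.22 with an SE of 0.09 and the dim Nebl by -0.37 with an SE of 0.16. The other probes of Flnc and Nebl, each dim, went the opposite way, at -0.18 and 0.19. No member had groups that did not overlap, beside 0.115% of all probes above and 0.17% below. The count past the study's criterion was 1 without WT replicate 1 or PatKO replicate 1, and 2 without WT replicate 3.

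Paralogues were compared as the log2 difference of their probes within a heart. Since probes differ in how strongly they bind, only differences between hearts of this balance are read, not its size. Over 5 pairs and 4 comparisons there were 20 two-sided exact permutation tests, of which 1 gave an unadjusted p under 0.05 and 0 passed after Benjamini-Hochberg adjustment (smallest adjusted p = 0.389). Among PatKO, MatKO and WT hearts such a test cannot give a p below 0.0286. A single pair at that p could not pass the adjustment over 20 tests, so the adjusted result says little there.

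The test with an unadjusted p under 0.05 was that of the balance of ventricular over atrial regulatory light chain. Myl2 minus Myl7 was 1.02 in the KO heart, 1.46, 1.80, 2.05 and 1.78 in PatKO hearts, 1.12, 1.37, 1.11 and 1.00 in MatKO hearts and 1.20, 1.42 and 2.19 in WT hearts. All PatKO hearts were above all MatKO hearts, whereas the KO heart lay among the MatKO hearts and WT hearts spanned both. The means were 1.77 ± 0.24 in PatKO hearts and 1.15 ± 0.16 in MatKO hearts (SD, n = 4 each), with an exact permutation p of 0.0286, the smallest that 4 against 4 hearts can give (adjusted p = 0.389). Over the 12 hearts Myl7 covered a range of 1.19, and Myl2, close to the array maximum, one of 0.18. For the essential light chains, Myl3 minus Myl4 lay between -0.13 and 0.12 in all 12 hearts, with PatKO hearts holding both ends. Both probes have means close to the array maximum (0.29 below it for Myl3 and 0.30 for Myl4), so this balance could show little change.

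For the myosin heavy chains, Myh6 minus Myh7 was 1.57 in the KO heart, 0.93, 1.34, 1.15 and 1.42 in PatKO hearts, 1.15, 1.31, 0.92 and 1.02 in MatKO hearts and 1.06, 1.27 and 1.64 in WT hearts. The PatKO, MatKO and WT hearts overlapped and the KO heart lay above all but WT replicate 3, with a difference of 0.11 between PatKO and MatKO hearts (exact permutation p = 0.371). The Myh6 probe in this balance has a mean 0.82 below the highest value on the arrays, so its differences may be compressed. The balance was not tested with the less bright Myh6 probe alone. Myh6 itself read 14.92 in the KO heart, 14.60, 15.03, 14.87 and 15.08 in PatKO hearts, 14.58, 14.91, 14.47 and 14.26 in MatKO hearts and 14.60, 14.84 and 15.02 in WT hearts. The PatKO hearts lay toward the top but overlapped the MatKO hearts, with a difference of 0.34 and an SE of 0.16. The less bright Myh6 probe (mean 11.50) read 11.42 in the KO heart, 11.07, 11.87, 12.22 and 12.59 in PatKO hearts, 11.05, 11.22, 10.71 and 10.97 in MatKO hearts and 10.95, 11.56 and 12.40 in WT hearts. PatKO replicate 4 was the highest of the 12 hearts on both probes, and on this one PatKO and MatKO hearts differed by 0.95 with an SE of 0.34 (adjusted p = 0.577 from limma).

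For troponin I, Tnni3 minus Tnni1 was -0.77 in the KO heart, -0.77, -1.09, -0.75 and -0.62 in PatKO hearts, -1.10, -1.28, -0.999 and -1.30 in MatKO hearts and -0.67, -1.15 and -0.78 in WT hearts. The 2 lowest balances were those of MatKO hearts, and PatKO replicate 2 and WT replicate 2 lay among them. The difference of 0.36 between PatKO and MatKO hearts had an exact permutation p of 0.0571 (adjusted p = 0.389). Tnni1 read 13.65 in the KO heart, 13.35, 13.75, 13.70 and 13.69 in PatKO hearts, 14.04, 13.78, 13.64 and 13.96 in MatKO hearts and 13.37, 14.03 and 13.86 in WT hearts. Tnni3 read 12.88 in the KO heart, 12.58, 12.66, 12.94 and 13.07 in PatKO hearts, 12.93, 12.50, 12.64 and 12.66 in MatKO hearts and 12.69, 12.89 and 13.08 in WT hearts. For each gene alone the groups overlapped.

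For the alpha-actins, Actc1 minus Acta1 was 1.41 in the KO heart, 2.16, 2.55, 1.77 and 1.91 in PatKO hearts, 1.61, 1.44, 1.44 and 2.00 in MatKO hearts and 2.14, 1.42 and 2.11 in WT hearts. PatKO hearts tended to the higher end and overlapped the MatKO hearts through MatKO replicate 4, with a difference of 0.48 (exact permutation p = 0.0857). Acta1 read 13.53 in the KO heart, 12.72, 12.43, 13.26 and 13.16 in PatKO hearts, 13.60, 13.52, 13.48 and 12.98 in MatKO hearts and 12.71, 13.67 and 12.97 in WT hearts. Actc1 read 14.94 in the KO heart, 14.88, 14.98, 15.03 and 15.07 in PatKO hearts, 15.21, 14.96, 14.92 and 14.98 in MatKO hearts and 14.85, 15.09 and 15.08 in WT hearts. Over the 12 hearts Acta1 covered a range of 1.24 and Actc1 one of 0.36, and the PatKO, MatKO and WT hearts overlapped for both, with the KO heart above all PatKO hearts for Acta1. The cardiac to slow skeletal troponin T balance was not analysed, for want of a Tnnt2 probe.

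**Figure D4:**
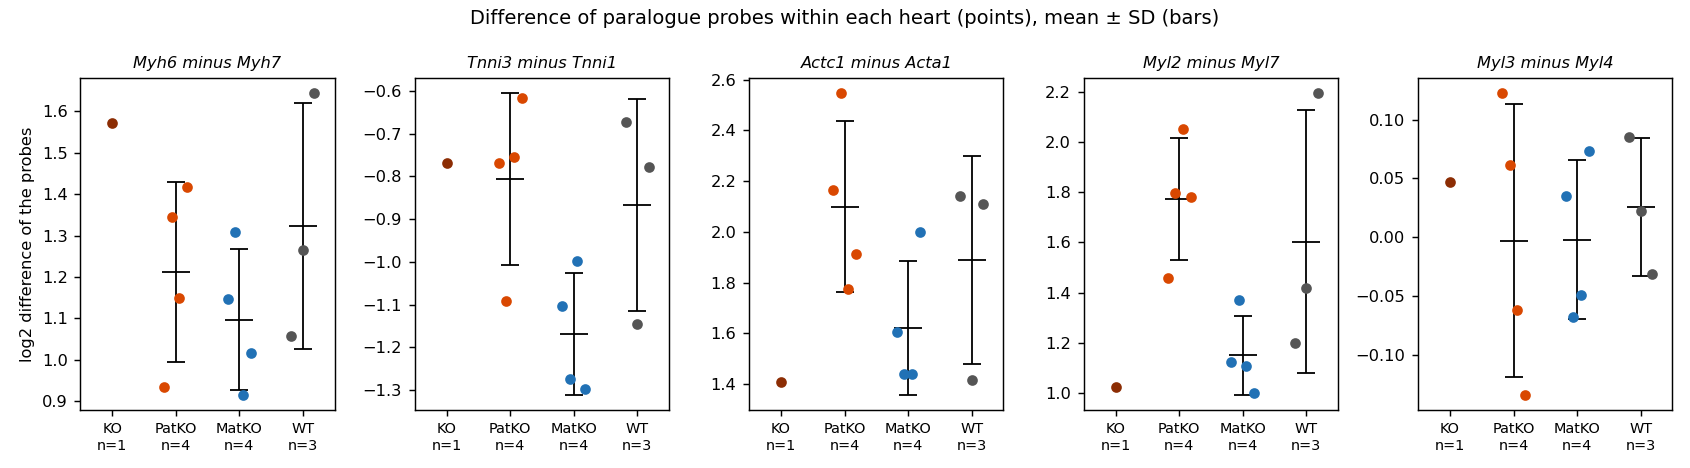
Log2 difference of the probes of 5 paralogue pairs within each heart (y axis, points) by genotype (x axis), with mean and SD as bars where a group has several hearts. For Myl2 minus Myl7 the 4 PatKO hearts (1.46 to 2.05) lie above the 4 MatKO hearts (1.00 to 1.37), and in the other pairs PatKO and MatKO hearts overlap.

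Of the 30 members, 19 have several probes, 69 probes in all for the 30. Of 14 members with several probes above the dim bound, all such probes had the same sign in 9 for PatKO against MatKO, 9 for PatKO against WT, 11 for MatKO against WT and 4 for KO against WT. Between PatKO and MatKO hearts Myh6 differed by 0.34 and 0.95 at its probes, Myom1, which encodes myomesin, by 0.02 and 0.31, and alpha-actinin 2 (Actn2) by 0.01, -0.05 and 0.38. The last of each has the lowest mean signal, and Actn2's is at 8.32. At Myl4 the bright probe differed by -0.02, and a dim one (mean 6.75) by -1.16 with an SE of 0.31. That dim probe read 6.59 in the KO heart, 5.84 to 6.96 in PatKO hearts, 6.49 to 7.83 in MatKO hearts and 6.42 to 6.94 in WT hearts. PatKO and MatKO hearts overlapped there only through PatKO replicate 1 and MatKO replicate 3, and the sources used here do not say whether it reads the transcript of the bright probe.

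**Figure D5:**
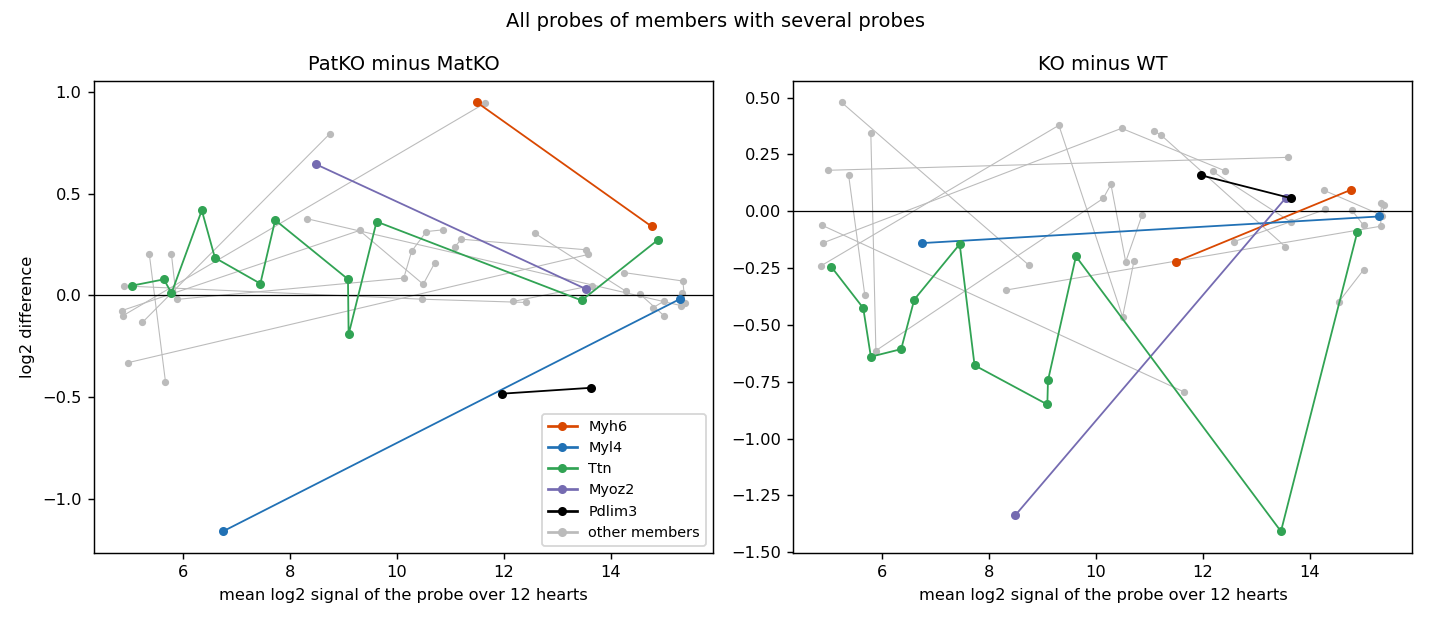
Log2 difference (y axis) of every probe of the 19 members with several probes against the probe's mean log2 signal (x axis), for PatKO minus MatKO and KO minus WT, with lines joining probes of one gene. The titin probes lie below 0 for KO minus WT at all signals, and the probes of Pdlim3 lie together at -0.45 and -0.48 for PatKO minus MatKO.

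Other genes of the same structures and their supporting systems were read from lists beside the members. Of 36 other sarcomere and Z-disc genes, 24 were above and 12 below their MatKO level in PatKO hearts, with a median of 0.06. Of all probes, 48.9% were above. At an unadjusted p under 0.05 there were 6 of these genes above (3.3% of all probes) and 3 below (3.82% of all probes). They include Ankrd23, a relative of Ankrd1 (0.76, SE 0.22), the Z-disc and costamere protein Fhl2 (0.44), the calcium store protein Casq2 (0.48) and the PDZ and LIM protein Pdlim7 (-0.34). Against WT, Ankrd23 was 0.81 lower in MatKO hearts, so that like Mypn it was lowest in the MatKO and KO hearts, with a KO difference from WT of -0.90. None of these genes passed an adjusted p of 0.05 in limma in any of the 5 comparisons.

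Of 20 genes of sarcomere assembly, folding and turnover, 15 were above and 5 below their MatKO level in PatKO hearts, with a median of 0.09. Of all probes, 48.9% were above. At an unadjusted p under 0.05 there were 4 above (3.3% of all probes) and 1 below (3.82%). That 1 was Hspb2, a small heat shock protein, with the lowest p of the list (-0.42). In MatKO hearts 16 of the 20 were below WT, with a median of -0.10, where 51.2% of all probes were above. In the KO heart 15, among them the ubiquitin ligase Fbxo32 (-0.93), were below WT, where 46.4% of all probes were above. Their median in the KO heart was -0.20 for the 20 genes. Of 28 genes of the intercalated disc and costamere, which carry force from the sarcomere to the membrane and to neighbouring cells, 20 were above their MatKO level in PatKO hearts (median 0.06), where 48.9% of all probes were above, and 5 of them had an unadjusted p under 0.05, where 3.3% of all probes were above at that threshold, among them the muscle integrin Itga7 (1.14, mean signal 6.66) and sarcospan (Sspn, 0.26). Of 22 regulators of sarcomere genes, 11 were above and 11 below (median 0.00219), and 1, the serum response factor partner Myocd (0.35), was above at an unadjusted p under 0.05, beside 3.3% of all probes. No gene of these lists passed an adjusted p of 0.05.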

How the data were processed

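The deposited values are log2 probe signals of 12 hearts, which the authors made by background correction and quantile normalization (neqc) in limma. GenomeStudio and limma are named in the submitters' processing notes, without their versions. Although the methods speak of Affymetrix chips, the deposited probes carry Illumina identifiers. A table of scanner signals was also deposited, but its 24 value columns carry names that match no heart's labels and were not used. Depth does not apply to arrays, and the number of hearts limits the precision.

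Probes were named from GEO's platform annotation, in which 34875 of 45267 had 1 gene symbol, 18 several and 10374 were not listed. A linear model with 4 genotypes over all 12 hearts, and one with 2 groups, was estimated by limma (version 3.58.1, lmFit and eBayes, under R 4.3.3), with Benjamini-Hochberg adjustment over all probes. The fit was tested on simulated data. The study's criterion asks for a log2 difference beyond 0.4 in either direction and an unadjusted p under 0.01. Alternatives were a replicate block, array weights, another variance model, Xist or liver covariates, only the hearts compared, each heart left out, the mean of all probes, dim probes left out and an offset on low signals. Paralogue balances were tested by two-sided exact permutation. Promoter windows were matched by symbol for 28 members.

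Values in every heart were given for paralogue pairs, members past the criterion, the 3 of smallest p in each comparison and the 3 of largest and smallest SD. Values of other probes of these genes and of Myh6 were chosen after they were seen. The members and lists were chosen with earlier results of these data known. Replicate numbers are shared across genotypes, and deviations of same-numbered hearts correlated over 0.1 in 2 of 10 pairs (-0.346 to 0.537). Those 2 pairs were of WT and PatKO hearts, and over the members they correlated at 0.77 and 0.50. With so few hearts, and without litters or slides, this cannot show whether the numbers pair hearts. Hearts were therefore compared unpaired, with the replicate block as an alternative. Litters are not given, so p-values measure the spread between these hearts, which may be partly technical. The methods put the arrays on separate slides, which hearts shared one is not given, and a slide effect cannot be tested.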

Additional observations from a re-analysis of the deposited data

Results flagged for a closer look

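Among 70 sets of 4 hearts of one genotype, 2 members had a heart far from the other 3 by Dixon's criterion, and chance gives about 1 in 20 such sets. Tnni1 read 13.35 in PatKO replicate 1, with the other PatKO hearts at 13.69 to 13.75. Myl4 read 15.23 in MatKO replicate 4, with the other MatKO hearts all at 15.33, close to the highest value of the arrays.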

How the results depend on the processing

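No member passed an adjusted p of 0.05 in limma under any alternative run. No paralogue pair passed in its permutation tests either. Among PatKO, MatKO and WT hearts the smallest p these tests allow made passing nearly out of reach. The smallest adjusted p of a member ranged from 0.139 to 0.736 over the alternatives for PatKO against MatKO. Members past the study's criterion numbered 3 for PatKO against MatKO, with 2 under a replicate block, a trended and robust variance, the liver mean as a covariate or the mean of all probes of a gene, 4 with the brightest probe under 14, 5 when only the hearts compared were fitted, 1 to 5 when each heart was left out in turn and 1 with the 9 Xist-expressing hearts. For PatKO against WT the count of 0 became 0 to 1 on leaving out hearts. For MatKO against WT the count of 1 became 0 with a replicate block, with array weights, with only the hearts compared, with the mean of all probes of a gene and with Xist-expressing hearts, and 0 to 2 on leaving out hearts. For ablated against expressing hearts the count of 0 became 1 with a replicate block and 0 to 2 on leaving out hearts. Under the block Pdlim3 no longer passed the criterion between PatKO and MatKO hearts, and Ttn in that comparison and Flnc between ablated and expressing hearts no longer had an unadjusted p under 0.05. The sign-flip test of Myl2 minus Myl7 over same-numbered PatKO and MatKO hearts gave an exact p of 0.125, the smallest that 4 pairs allow.

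With the brightest probe under 14 in place of the brightest, a setting chosen after seeing the data as was that of Xist-expressing hearts, titin differed between PatKO and MatKO hearts by -0.0243 in place of 0.27. The member median then was 0.0510 for PatKO against WT and -0.12 for KO against WT. The KO against WT median was 0.0336 with a replicate block and 0.0447 with the liver mean as a covariate. The causes were not tested. Signals near the array maximum may be compressed, 2 members are dim, and the KO group is 1 heart.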
